A study of Mus musculus with 4 samples.

Results

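The ribosomal protein genes of mouse encode the protein parts of the large (Rpl) and small (Rps) ribosomal subunits. They were chosen here by symbol, as every row whose name starts with Rpl or Rps and a number (or is Rplp or Rpsa). Rpl29, the Rps6k kinases, pseudogenes marked -ps and genes with fewer than 100 molecule counts (UMIs, unique molecular identifiers) over all cells were left out. Of the 32285 genes measured, 101 matched the pattern, and 82 were kept, 48 named for the large and 34 for the small subunit. The 3 genes under the minimum were Rpl10l with 2 UMIs, Rpl39l with 36 and Rpl3l with 90, and the least abundant gene inside it was Rps27rt with 886. One of the 82, Rps19bp1, carries the name of a protein that binds RPS19 and is not itself a ribosomal protein, and Rpl7l1 encodes a paralog of RPL7 known from ribosome assembly. Fau, which encodes a ribosomal protein fused to a ubiquitin-like protein, falls outside the pattern.

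The cells were live CD45+ immune cells of the esophagus from 10 mice, 5 wild-type and 5 Il20rb knock-out. IL20RB is a receptor subunit shared by IL-19, IL-20 and IL-24. All animals of both genotypes went through the same model of eosinophilic esophagitis, with calcipotriol (MC903) and ovalbumin on the ear for 14 days, ovalbumin in the drinking water from day 14 and by gavage on days 15 and 17, and sampling on day 18. The series holds no group without the challenge. Strain, sex and age were not stated in the labels. Cells of each animal carried 1 hashtag antibody, were pooled and sorted together, and were loaded on 2 droplet wells, so the animal is the replicate and each well held both genotypes.

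Ribosomal proteins are made in near-equal numbers, since a ribosome holds a single copy of most of them. Their mRNAs are short, abundant and stable, and most start with a run of pyrimidines through which mTOR signalling adjusts their translation. In single-cell libraries of immune cells they usually make up a large share of all molecules in resting lymphocytes and a small share in neutrophils, which carry little RNA.

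The 82 genes gave 6348545 of 35317007 UMIs in 6054 cells, or 17.98% of all molecules. UMIs per animal ranged from 1805883 to 5666994, and Ptprc, which encodes CD45, was found in 88.6% of cells. Epx, an eosinophil granule gene, had 0 UMIs, and no cluster was named eosinophil-like. Prg2, another gene used as an eosinophil marker, had 56 UMIs in 14 cells. Cells were grouped without any of the 82 genes into 39 clusters, and clusters were named "X-like" from marker genes. These names are rebuilt and not the authors'. Of the classes, 7 had 10 or more cells in at least 3 animals of each genotype and were used for genotype comparisons, and 7 clusters stayed unnamed, with a mean over animals of 16.3% of cells in the wild type and 19.5% in the knock-out. Where RNA per cell differs, more of these mRNAs and fewer other mRNAs cannot be told apart by a share.

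Many of the differences described here concern paralogs whose levels differ from their partners between classes, so the start regions of 5 genes of such pairs are shown first. Each line gives the 70 bases before and 30 bases after the start listed first for the gene in the RefSeq promoter table, on build GRCm38.p6, read on the strand of the gene. That table lists 2 starts for Rpl22 and 2 for Rps27l, of which 1 each is shown, and both windows lie inside the span of the gene as annotated. Capitals mark CTTTC, a pyrimidine core of the kind that starts ribosomal protein mRNAs, and CCGGAAG, the core bound by ETS factors. Rps27 lies at chr3:90213619-90213718 on the minus strand, Rps27l at chr9:66946016-66946115 on the plus strand and Rps27rt at chr9:114982710-114982809 on the minus strand. Rpl22 lies at chr4:152325656-152325755 and Rpl22l1 at chr3:28805438-28805537, both on the plus strand.
Rps27: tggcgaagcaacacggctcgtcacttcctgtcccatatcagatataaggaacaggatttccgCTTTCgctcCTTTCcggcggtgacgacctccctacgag
Rps27rt: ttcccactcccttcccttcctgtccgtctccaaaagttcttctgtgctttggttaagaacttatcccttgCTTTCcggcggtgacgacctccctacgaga
Rps27l: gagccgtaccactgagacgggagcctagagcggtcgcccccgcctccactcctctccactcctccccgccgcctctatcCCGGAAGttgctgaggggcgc
Rpl22: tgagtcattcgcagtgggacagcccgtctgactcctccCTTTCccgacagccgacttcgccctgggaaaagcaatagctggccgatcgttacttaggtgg
Rpl22l1: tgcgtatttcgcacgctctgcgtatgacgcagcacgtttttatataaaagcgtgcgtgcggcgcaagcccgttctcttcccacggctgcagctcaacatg

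Rps27 and Rps27rt share an unbroken run of at least 29 bases. It begins 1 base after the annotated start of Rps27 and at the annotated start of Rps27rt, and their sequences before it differ. The run reaches the last base of the Rps27 window, so its full length is not shown. The longest run shared by Rps27 and Rps27l in the windows shown was 6 bases, and that of Rpl22 and Rpl22l1 was 7. Rps27rt shares this stretch with Rps27, how reads of such copies were assigned is not stated, and its values are uncertain. The promoter table held 63 of the 82 genes. CTTTC on the transcript strand was found in this 100-base window, at any listed start, of 27 of the 63 (42.9%), against 14.4% of 27025 genes. CCGGAAG on either strand was found in the 300-base window, 250 bases before to 50 after the start, of 25 of the 63 (39.7%), against 9.93% of all genes. TATAAA on either strand was found in that window of 7 (11.1%), against 15.7%. TCTCGCGA was sought in the same window on the transcript strand only, and was found in 8 (12.7%), against 0.829%. Its counts are thus not comparable with those of the motifs sought on either strand. These are matches of letters and do not show binding.

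Over all cells the most abundant genes were Rps29 with 286309 UMIs, Rps28 with 198189, Rpl37a with 193079, Rps24 with 173636 and Rpl41 with 152537. All 5 encode short proteins. The 5 least abundant were Rps27rt with 886 UMIs, Rps19bp1 with 1417, Rpl7l1 with 1836, Rpl4 with 14843 and Rps27l with 17418. RPL4 is a core protein that lines the exit tunnel, and the other 4 are the odd members named above or paralogs. Counts come from the 3′ end of each mRNA and were not divided by length. Rps29 was found in 98.8% of cells and Rps27rt in 13.2%.

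The family took up different shares of the RNA in different classes. Mean shares over animals were 25.6% ± 2.11 (SD, n = 9) in T-like cells, 23.6% ± 1.37 (n = 9) in cDC1-like dendritic cells and 23.6% ± 3.0 (n = 9) in ILC2-like cells, the innate lymphocytes of type 2 responses. They were 20.5% ± 1.47 (n = 10) in cDC2-like dendritic cells, 17.9% ± 1.67 (n = 10) in monocyte-like, 17.7% ± 0.61 (n = 7) in cycling-like and 16.4% ± 2.17 (n = 10) in macrophage-like cells. Neutrophil-like cells stood at 3.20% ± 1.22 (n = 7). B-like cells had 36.3% in the 1 animal with 10 or more of them, and 35.9% over the 100 B-like cells of all animals.

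**Figure D1:**
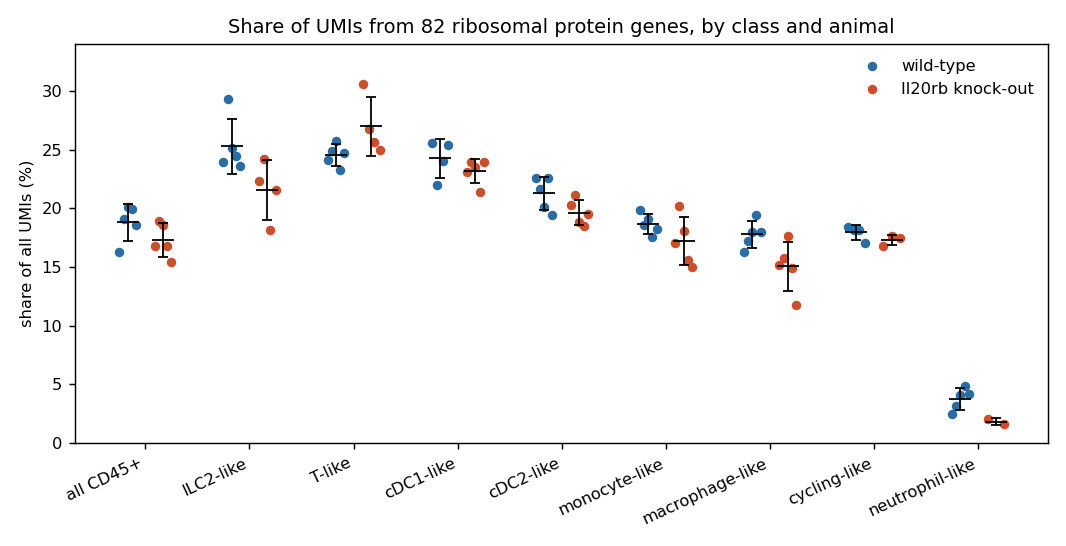
Share of all UMIs (%) that came from the 82 genes, by cell class (x axis) and animal (points, wild-type in blue, Il20rb knock-out in red), for animals with 10 or more cells of the class. Bars are mean ± SD. Neutrophil-like cells lie below 5% in all 7 animals while every point of the other classes lies above 11%, and genotypes overlap in each of the 7 classes used for comparison.

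Compared within animals, T-like cells were above cDC2-like cells in 9 of 9 animals, by 4.94 percentage points ± 2.88 (SD). cDC2-like cells were above monocyte-like cells in 10 of 10 animals, by 2.52 ± 1.51, and above macrophage-like cells in 10 of 10, by 4.05 ± 2.15. Within the upper and lower ends of the order no pair was separated in all animals. Monocyte-like cells came nearest, above macrophage-like cells in 9 of 10 animals (1.52 ± 1.85), and were above cycling-like cells in 5 of 7 (0.535 ± 1.62). T-like cells were above ILC2-like cells in 6 of 8 animals (1.30 ± 3.69), cDC1-like cells were above ILC2-like cells in 4 of 8 (0.079 ± 2.51), and cycling-like cells were above macrophage-like cells in 5 of 7 (0.389 ± 1.31).

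Neutrophil-like cells carried the fewest molecules, with a median of 1820.5 UMIs over all cells of the class against 5815 in monocyte-like cells. Among cells of 1000 to 2500 UMIs, the share was 3.14% ± 1.21 (n = 7 animals) in neutrophil-like, 10.7% ± 2.02 (n = 4) in monocyte-like, 11.1% ± 1.60 (n = 4) in macrophage-like and 23.1% ± 1.21 (n = 4) in T-like cells. The neutrophil-like share was the lowest in this range of depth too, with a smaller gap to monocyte-like cells than over all depths, and depth within the range was not matched. In monocyte-like cells over 2500 UMIs the share was 18.1% ± 1.68 (n = 10), above that of the shallow cells of the class. T-like cells of over 2500 UMIs had 26.3% ± 2.52 (n = 8). Free RNA in droplets was not measured here and its part in these shares was not tested.

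Clusters within a class differed as well. Among monocyte-like clusters, cluster 10 (leading genes Gm9733, Mgst1 and Gsr) had 22.9% ± 1.78 (SD over 8 animals with 10 or more cells). Cluster 0, led by Ccl12, Cxcl10, Ifit2 and Rsad2, which are chemokine and interferon-induced genes, had 12.4% ± 1.57 (5 animals). Cluster 20, led by Ifi213 and Ly6c2, had 16.9% ± 1.66 (5 animals). In the macrophage-like class, cluster 31, led by Ccl8, Ccl5 and Cfb, held 39 cells, all from knock-out animals, with 8.64% over its cells.

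**Figure D2:**
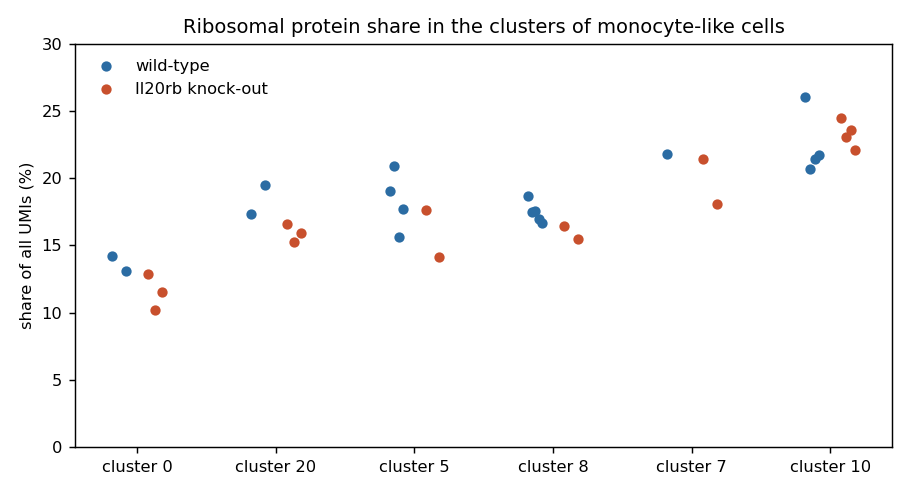
Share of all UMIs (%) from the 82 genes in each of the 6 clusters of monocyte-like cells (x axis), 1 point per animal with 10 or more cells of the cluster, wild-type in blue and Il20rb knock-out in red. Cluster 0 lies between 10.2% and 14.2% and cluster 10 between 20.7% and 26.1%, with both genotypes in each.

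The balance of the subunits was close between most classes. Large-subunit genes gave 53.7% ± 0.20 of the family's UMIs in the wild type and 53.6% ± 0.23 in knock-out animals over all cells. Over the 7 classes used for genotype comparisons, wild-type means ran from 53.2% ± 0.60 in cDC1-like to 54.4% ± 0.37 in macrophage-like cells. Migratory DC-like cells had 52.9% ± 0.43 in 4 wild-type animals. Neutrophil-like cells stood lower, at 49.5% ± 1.05 in 5 animals of the wild type and 49.1% ± 1.50 in 2 of the knock-out.

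Between T-like and cDC2-like cells of the same 9 animals, 34 of 81 tested genes were higher and 9 lower in T-like cells (edgeR, adjusted p under 0.05). Over all 3655 genes tested, 23% were called higher and 25.8% lower. The median log2 difference of the family was 0.15, against 0.00 for all genes. Rps27, a small-subunit protein, was at 8511 ± 798 CPM (the gene's UMIs scaled to a common library size with TMM factors, mean ± SD) in T-like and 5308 ± 559 CPM in cDC2-like cells, a log2 difference of 0.68 ± 0.07 (SE, adjusted p = 3.4e-09). Rpl12, which helps form the base of the ribosomal stalk, was higher by 0.78 ± 0.11 (adjusted p = 9.1e-07) and Rpl22l1 by 0.69 ± 0.12 (adjusted p = 1.5e-05). The lowest difference was that of Rps27l, at 278 ± 110 against 675 ± 91 CPM (log2 -1.26 ± 0.15, adjusted p = 8.5e-08). Rps19bp1, Rpl7l1, Rpl10, Rpl36al and Rps25 were called lower too, with log2 differences of -0.82, -0.73, -0.38, -0.33 and -0.32, as was Rpl28 (-0.41, chosen after its values were seen).

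Since the family's total differs between classes, each gene was also measured relative to the total of the 82. On that scale 21 genes were higher and 26 lower in T-like cells, where 47.3% of all genes were called in either direction. Rps27l was at -1.47 ± 0.16 (adjusted p = 3.3e-08), Rpl36al at -0.53 ± 0.08 (adjusted p = 2.9e-06) and Rps27 at 0.48 ± 0.05 (adjusted p = 4.2e-09). Rpl13a, chosen after its values were seen, was at 0.60 ± 0.08 (adjusted p = 6.0e-07), and Rpl28, chosen likewise, at -0.61 ± 0.06 (adjusted p = 4.1e-09). Rps27l, Rpl36al, Rps27, Rpl13a and Rpl28 had the same direction on both scales.

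Monocyte-like cells of 10 animals had 1 gene higher and 51 lower than cDC2-like cells out of 82, where 25.5% of 5129 genes were called higher and 23.3% lower. The family median was -0.17 on the log2 scale and that of all genes 0.00. The gene that was higher was Rpl36al, a paralog of Rpl36a, at 1558 ± 125 against 1324 ± 106 CPM (log2 0.23 ± 0.05, adjusted p = 0.00066). Its partner Rpl36a was lower by -0.48 ± 0.07 (adjusted p = 2.1e-06). Rpl14, a large-subunit protein, was lowest at 768 ± 143 against 1206 ± 96 CPM (log2 -0.66 ± 0.07, adjusted p = 5.5e-08). Rps4x on the X chromosome, chosen after its values were seen, was lower as well (-0.60 ± 0.05). Rps29 (0.08 ± 0.04, adjusted p = 0.093) and Rps27a, a fusion of ubiquitin and a small-subunit protein (0.10 ± 0.05, adjusted p = 0.079), were not called. Relative to the family total, 14 were higher and 18 lower (50.8% of all genes called in either direction).

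In macrophage-like against cDC2-like cells of 10 animals, 0 genes were higher and 68 of 82 lower, where 22% of 5510 genes were called higher and 20.7% lower. At an unadjusted p under 0.05, 0 were higher and 71 lower, against 25.1% and 24.1% of all genes. The family median was -0.36, that of all genes 0.00. Rps27 was at 3141 ± 336 against 4730.3 ± 617 CPM (log2 -0.59 ± 0.08, adjusted p = 1.7e-06). Rplp1, an acidic protein of the ribosomal stalk, was at 2973 ± 477 against 3057 ± 224 CPM (log2 -0.05 ± 0.07, adjusted p = 0.58), while Rplp0, which anchors it, was lower by -0.51 ± 0.09 (adjusted p = 4.3e-05). Relative to the total, 12 genes were higher and 14 lower (54.5% of all genes called in either direction).

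Neutrophil-like cells could be set against monocyte-like cells in 7 animals, 5 wild-type and 2 knock-out. Of 82 genes 81 were lower and 0 higher, where 40.9% of 4064 genes were called lower and 26.9% higher. At an unadjusted p under 0.05, 81 were lower and 0 higher, against 42.2% and 27.9% of all genes. The fit gave the family a median log2 difference of -2.75, and all genes a median of -0.35, against which it is to be read. Rps18 was at 120 ± 70 against 1938 ± 218 CPM (log2 -4.11 ± 0.31, adjusted p = 3.6e-19) and Rpl10a at 83.9 ± 56.9 against 1256 ± 175 CPM (log2 -4.14 ± 0.33, adjusted p = 3.7e-18). Rps27rt was not called (log2 -0.47 ± 0.48, adjusted p = 0.38), at 27.6 ± 41.0 CPM in neutrophil-like cells.

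Rps27 and Rps9 had smaller differences than most. Rps27 was at 2343 ± 592 against 4297 ± 234 CPM (log2 -0.91 ± 0.25, adjusted p = 0.00094) and Rps9, chosen after its values were seen, at 1773 ± 386 against 3428 ± 317 CPM (log2 -0.96 ± 0.24, adjusted p = 0.00042). Relative to the family total they were higher by 1.56 ± 0.25 (adjusted p = 2.3e-06) and 1.51 ± 0.25 (adjusted p = 3.9e-06). As a share of the family's UMIs, Rps27 ran from 5.70% to 7.72% over the 7 animals with a median of 6.96%, against 2.08% to 2.69% with a median of 2.38% in monocyte-like cells. The ranges do not overlap. On this scale 5 genes were higher and 27 lower, where 78.4% of all genes were called in either direction.

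**Figure D3:**
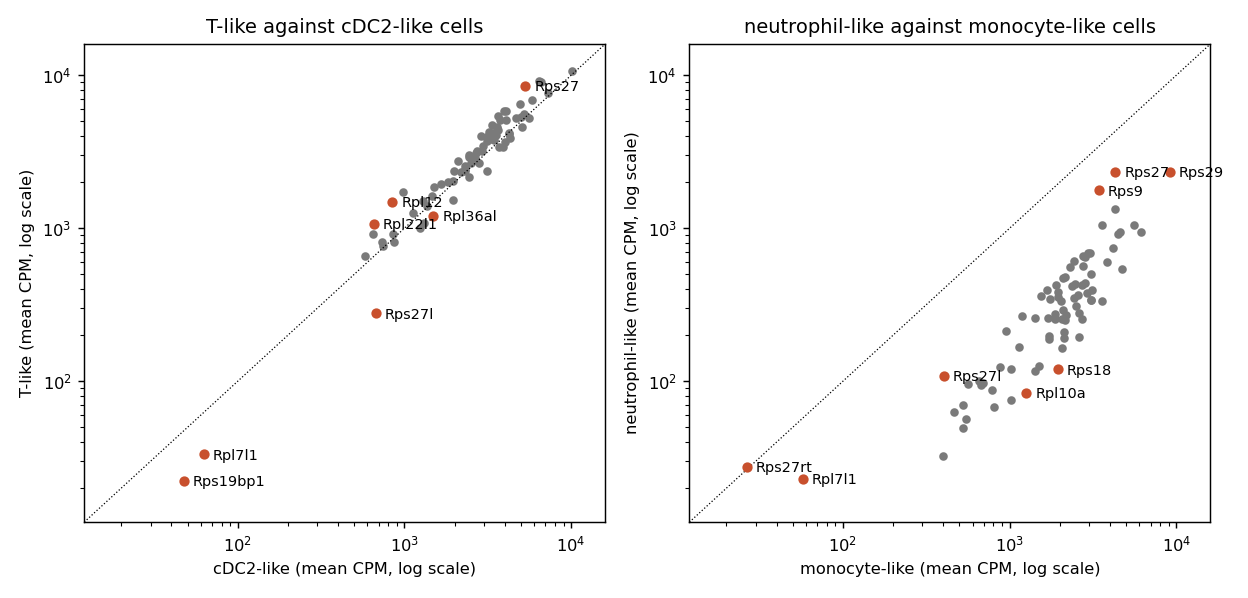
Mean level of each gene (points, CPM after TMM scaling, log axes) in T-like against cDC2-like cells (left) and in neutrophil-like against monocyte-like cells (right), with equality dotted and genes named in the text in red. Rps27l, Rpl7l1 and Rps19bp1 lie below the line on the left, and Rps27, Rps29 and Rps9 are the highest of the neutrophil-like cells on the right.

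Other genes of the translation apparatus were counted in the same fits from lists of the machinery. Of all genes in these fits, 26.9% were called higher and 40.9% lower in neutrophil-like cells, and 22% and 20.7% in macrophage-like cells. The shares were 25.5% and 23.3% in monocyte-like and 23% and 25.8% in T-like cells. In neutrophil-like cells 33 of 38 translation factors were lower than in monocyte-like cells and 1 higher (median log2 -2.02). Of the ribosome biogenesis list 17 of 20 measured genes were lower (median -2.38), among them Fbl, the methyltransferase of ribosomal RNA, at -3.57, and Npm1, a nucleolar chaperone, at -3.65. Of the mitochondrial ribosome genes 37 of 45 were lower (median -1.85), and of the mitochondrially encoded genes 12 of 12 (median -2.05). The mitochondrial share of all UMIs was 0.56% ± 0.31 in wild-type neutrophil-like and 2.33% ± 0.15 in wild-type monocyte-like cells, and its part in the result was not tested. In macrophage-like against cDC2-like cells 18 of 38 biogenesis genes were lower and 0 higher (median -0.28), with Fbl (adjusted p = 2.1e-08) and Npm1 (log2 -0.23, adjusted p = 0.015) among them. Small nucleolar RNA host genes, whose mRNAs share the pyrimidine start, were lower in 4 of 8 cases in monocyte-like against cDC2-like cells, with Gas5 at -0.82 (adjusted p = 2.0e-07). In T-like against cDC2-like cells, 8 of 38 translation factors were higher, such as Eef2, the translocation factor (0.48), and 3 lower, such as Eif4a1, an RNA helicase of initiation (-0.64). Of 26 measured biogenesis genes 4 were higher and 2 lower (Fbl at -0.64), and of 7 small nucleolar RNA host genes 2 were higher (Gas5 at 0.38) and 1 lower (Snhg15 at -0.57). Of 53 mitochondrial ribosome genes 1 was higher and 8 lower, and of 12 growth control genes 3 and 1. These T-like counts lie near or below the shares over all genes. The mitochondrially encoded genes lay above the share called higher, with 5 of 12 higher and 0 lower in T-like cells (median log2 0.20).

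Over the same 7 classes, which leave out neutrophil-like cells, the make-up of the family varied most for the 5 genes Rps27l, Rps19bp1, Rpl7l1, Rplp1 and Rps27rt, with log2 ranges of 1.88, 1.87, 1.64, 1.34 and 1.03 between the highest and lowest class mean. The median gene ranged over 0.39. Rplp1 gave 2.90% ± 0.31 of the family's UMIs in ILC2-like cells, 1.71% ± 0.03 in T-like and 1.14% ± 0.09 in monocyte-like cells. Its stalk partners Rplp0 and Rplp2 ranged over 0.27 and 0.32. In ILC2-like cells Rplp1 ran from 6137 to 8104 CPM over 9 animals with a median of 6670 CPM, above all animals of T-like cells, where it ran from 4014 to 5196 CPM.

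Rps27l, a p53-responsive paralog of Rps27, gave 17.1% ± 1.59 of the pair's UMIs in cycling-like cells (n = 7 animals, 14.7% to 19.8%) and 15.0% ± 3.10 in macrophage-like cells (n = 10). It gave 3.22% ± 1.41 in T-like (n = 9, 1.53% to 5.31%) and 3.76% ± 1.66 in ILC2-like cells (n = 9, 2.35% to 6.97%). The lymphoid ranges lie wholly below the range of cycling-like cells. So do the ranges of monocyte-like (6.18% to 12.15%) and cDC1-like cells (5.88% to 14.58%), while cDC2-like cells ran from 6.79% to 15.4%. The ILC2-like range overlaps those of monocyte-like, cDC1-like and cDC2-like cells. Rpl36al gave most of its pair with Rpl36a in monocyte-like cells, at 65.5% ± 2.60 (n = 10, 61.3% to 70.1%). Its mean also exceeded that of its partner in cDC1-like (54.6% ± 4.80), cDC2-like (53.6% ± 1.67) and cycling-like cells (52.6% ± 4.43). In macrophage-like cells it stood at 48.8% ± 4.94. It gave 40.3% ± 5.19 in ILC2-like and 44.0% ± 4.28 in T-like cells, again with no overlap with the monocyte-like range. Rpl22l1, whose protein and RPL22 act in opposite ways in lymphocyte development, gave 30.2% ± 2.54 of its pair in T-like (n = 9) and 17.4% ± 2.53 in cDC1-like cells (n = 9). Rps27rt gave 0.63% ± 0.11 of its pair over all cells (n = 10), and Rpl7l1 4.55% ± 0.44 of its pair with Rpl7. The T-like and ILC2-like values of Rps27l rest on 246 and 206 UMIs.

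**Figure D4:**
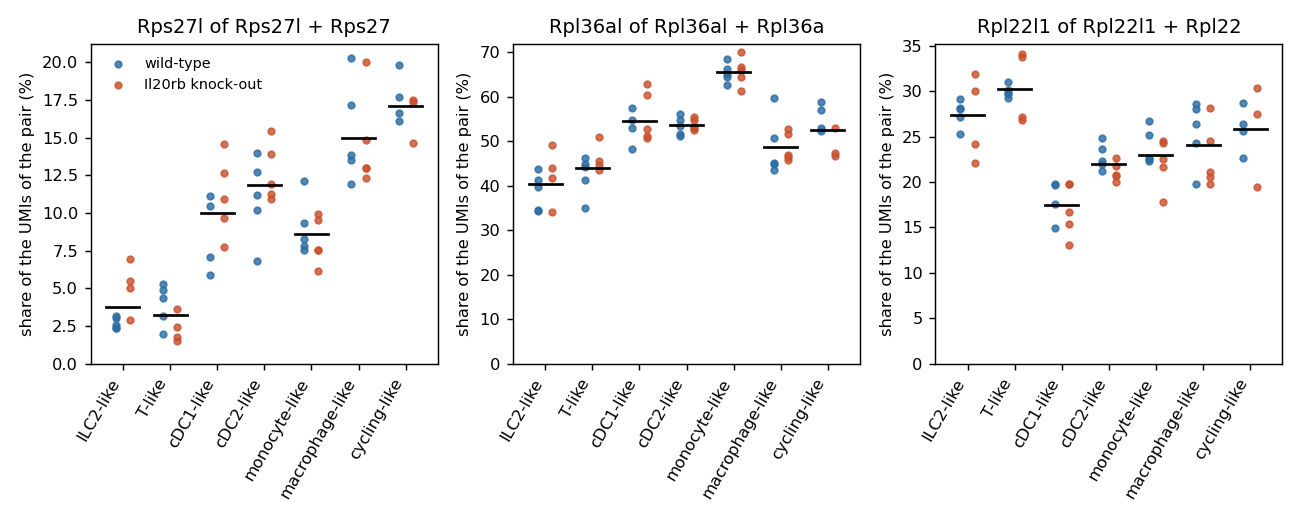
Share (%) of the UMIs of a paralog pair that came from Rps27l, Rpl36al and Rpl22l1 (panels), by class (x axis) and animal (points, wild-type in blue, Il20rb knock-out in red), with the mean over animals as a black line. Rps27l is lowest in ILC2-like and T-like cells, Rpl36al is highest in monocyte-like cells, and Rpl22l1 is lowest in cDC1-like cells.

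Over all CD45+ cells the 2 genotypes overlapped. The share was 16.3%, 19.1%, 20.1%, 19.97% and 18.5% in animals 1 to 5 of the wild type and 16.8%, 18.9%, 18.6%, 16.8% and 15.4% in knock-out animals 1 to 5. The means were 18.8% ± 1.56 and 17.3% ± 1.45, and the groups overlap. Wild-type animal 1 was lowest of its group. In that animal 35.3% of cells were neutrophil-like, against 1.61% to 12.9% in the other wild-type animals. Without monocyte-like and neutrophil-like cells, a setting chosen after seeing the data, wild-type shares ran from 18.3% to 20.5% and knock-out shares from 16.6% to 18.9%, which overlap as well. The wild type had a median of 4776 ± 913 UMIs per cell and the knock-out 5733 ± 379, and mitochondrial shares were 2.31% ± 0.22 and 2.12% ± 0.24. Their part in the shares was not tested.

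The count of genes past the threshold was 0 of 82 over all cells, by edgeR and by DESeq2, where 0.0393% of 10175 genes were called by edgeR. Of the 82 genes, 1 had an unadjusted p under 0.05, 8 had a fold change above 0 and 74 below 0. Of all genes, 6.85% had such a p and 48.8% lay below 0. The median log2 fold change, knock-out over wild type, was -0.06, against 0.01 for all genes. Relative to the family total, 37 genes lay above 0 and the median was 0.00, a scale that places the family near 0 by its construction. Rpl29, the left-out gene, fell by 0.83 ± 0.09 on the log2 scale (adjusted p = 0.0071), outside the range of -0.19 to 0.11 of the 82.

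The 5 genes with the smallest p over all cells were Rpl32, Rpl12, Rps12, Rps18 and Rpsa. Rpl32 was at 2315, 2909, 3052, 3104 and 2673 CPM in the wild type and 2404, 2714, 2707, 2282 and 1986 CPM in the knock-out animals (CPM before scaling). The groups overlap, and the log2 fold change was -0.15 ± 0.07 (SE, adjusted p = 0.72). Rpl12 was at -0.19 ± 0.09 (adjusted p = 0.75), Rps12 at -0.11 ± 0.06, Rps18 at -0.12 ± 0.06 and Rpsa, a laminin-binding small-subunit protein, at -0.13 ± 0.07, with adjusted p from 0.80 to 0.81. Rps27a was the 1 gene of 82 whose raw CPM did not overlap between genotypes, at 3738, 3863, 3921, 4075 and 3865 in the wild type and 3652, 3712, 3382, 3519 and 3434 in the knock-out animals. Of all 10175 genes 1.46% did not overlap, and after TMM scaling its fold change was -0.07 ± 0.07 (adjusted p = 0.91). The most abundant gene, Rps29, was at 0.03 ± 0.05.

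Within the 7 classes no gene of the family was called either, by edgeR or by DESeq2. In the same fits edgeR called 0.384% of all genes in ILC2-like, 0% in T-like, 0.137% in cDC1-like, 0.0543% in cDC2-like, 0.0243% in cycling-like, 0.0724% in macrophage-like and 0.0418% in monocyte-like cells. Unadjusted p under 0.05 was reached by 26 of 79 tested genes in ILC2-like, 23 of 79 in T-like, 1 of 79 in cDC1-like, 1 of 82 in cDC2-like, 2 of 81 in cycling-like, 9 of 82 in macrophage-like and 1 of 82 in monocyte-like cells. Over all genes tested the same threshold was reached by 9.55%, 7.03%, 5.83%, 4.13%, 3.43%, 5.05% and 12.3%, in the same order of classes. Rpl29 fell in 6 of the 7 classes, with log2 fold changes from -1.05 to -0.72 over all 7 and an adjusted p of 0.16 in T-like cells.

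**Figure D5:**
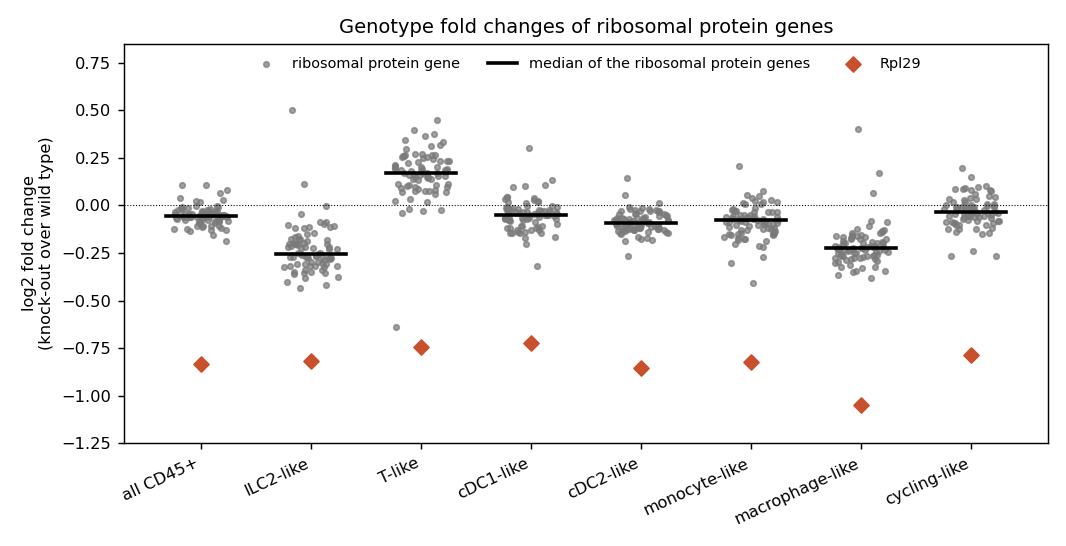
Log2 fold change, knock-out over wild type, of each tested gene of the family (grey points), their median (black line) and Rpl29 (red diamond), in all CD45+ cells and 7 classes. The medians lie between -0.25 (ILC2-like) and 0.17 (T-like), while Rpl29 lies at -0.72 or lower throughout.

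In ILC2-like and T-like cells the fold changes lay on opposite sides of 0, and none passed the test. In ILC2-like cells 77 of 79 genes were below 0 (median log2 fold change -0.25, all genes -0.01), and in T-like cells 74 of 79 were above 0 (median 0.17, all genes 0.02). The ILC2-like shares were 23.9%, 29.3%, 25.1%, 24.4% and 23.6% in the wild type and 22.3%, 24.2%, 18.1% and 21.6% in the knock-out animals 1, 2, 4 and 5. The T-like shares were 24.1%, 24.9%, 25.8%, 23.3% and 24.7% in the wild type and 30.6%, 26.7%, 25.7% and 24.9% in the knock-out animals 1, 2, 3 and 5. Both pairs of groups overlap, and knock-out animals gave 11 to 19 cells each for these values. In each class 1 knock-out animal had too few cells to be used. Knock-out animal 3 had 24.1% in ILC2-like cells (6 cells), and knock-out animal 4 had 17.1% in T-like cells (5 cells). The latter lies below all wild-type T-like values, so the size of the T-like difference depends on the minimum number of cells per animal. Without knock-out animal 1 the T-like difference of the means went from 2.44 to 1.25 percentage points. Relative to the family total 37 of 79 genes in ILC2-like and 40 of 79 in T-like cells lay above 0. That scale places the family near 0 by its construction, so this split does not bear on a common shift.

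Rps27 had the smallest p in ILC2-like cells, at 6043, 7308, 6799.5, 6749 and 7038 CPM in the wild type and 6086, 5672, 4000 and 4931 CPM in the knock-out animals (log2 fold change -0.42 ± 0.13, adjusted p = 0.24). Only knock-out animal 1 reaches the wild-type range. Rps3, a small-subunit protein at the mRNA entry site, followed (-0.44 ± 0.15, adjusted p = 0.30). Rpl37 had the smallest p in T-like cells, at 4270, 4543, 4883, 4425 and 4355 CPM in the wild type and 5378, 5282, 5358 and 5017 CPM in the knock-out animals (0.26 ± 0.07, adjusted p = 0.25). These groups do not overlap, but the gene was picked for its small p and the test over all genes did not call it. Rpl35, a large-subunit protein, followed (0.32 ± 0.09, adjusted p = 0.34). Rps27l lay on the other side of 0 from the family median in both classes, at 0.50 ± 0.24 (adjusted p = 0.48) in ILC2-like and -0.64 ± 0.31 (adjusted p = 0.72) in T-like cells. T-like cluster 38 was led by Ctla4, Tnfrsf4, Ikzf2 and Il4, with Il13 and Foxp3 also among its leading genes. It had 17.7% in both of the 2 animals with 10 or more cells and held 41 wild-type and 13 knock-out cells. The main T-like cluster held 118 and 49, with 27.0% ± 2.47 (8 animals). The part of this make-up in the T-like values was not tested.

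In myeloid classes the fold changes were mostly below 0. In macrophage-like cells 79 of 82 genes were below 0 (median -0.22, all genes 0.00) and shares were 17.8% ± 1.18 in the wild type and 15.0% ± 2.13 in the knock-out animals. Rps27a had the smallest p, at 3443, 3353, 3513, 3757 and 3426 CPM in the wild type and 2840.5, 2886, 3080, 2839.5 and 2175 CPM in the knock-out animals (log2 fold change -0.32 ± 0.12, adjusted p = 0.94). All 5 knock-out values lie below the wild-type ones, in a gene picked for its small p. Rps2 was at -0.38 ± 0.16 (adjusted p = 0.96). In cDC2-like cells 79 of 82 were below 0 (median -0.09) and shares were 21.3% ± 1.44 and 19.6% ± 1.07. The largest cDC2-like cluster was cluster 12 in the wild type (31.4% of its cDC2-like cells, family share 21.5% ± 1.23 over 8 animals of both genotypes) and cluster 13 in the knock-out (33.9%, 17.6% ± 1.30 over 9 animals of both genotypes). In monocyte-like cells 70 of 82 were below 0 (median -0.08) and shares were 18.7% ± 0.85 and 17.2% ± 2.06. Rpl14 was at 726, 1023, 908, 730 and 815 CPM in wild-type and 635, 678, 612, 571 and 541 CPM in knock-out monocyte-like cells (-0.41 ± 0.12, adjusted p = 0.22). These groups do not overlap either, and the gene was picked in the same way. Rps26 was at -0.19 ± 0.10 (adjusted p = 0.46). Cluster 0, with the lowest share of that class, held 47 cells of the wild type and 266 of the knock-out, with 120 from knock-out animal 1 and 126 from knock-out animal 5. The part of cluster make-up in the class values was not tested.

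In dendritic and cycling classes the genes with the smallest p were not called. They were Rpl12 (-0.32 ± 0.13, adjusted p = 0.72) and Rps27l (0.30 ± 0.18, adjusted p = 0.84) in cDC1-like cells, and Rpl22l1 (-0.27 ± 0.11) and Rps25 (-0.18 ± 0.09) in cDC2-like cells, both with an adjusted p of 1.0. In cycling-like cells they were Rpl10 (-0.27 ± 0.11) and Rpl10a (-0.24 ± 0.11), again with an adjusted p of 1.0.

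Clusters were compared in the same way. Of 15 clusters with 3 or more animals per genotype, the mean share was lower in knock-out animals in 13 and higher in 2, with a median difference of -1.07 percentage points and a range from -3.74 to 2.28. In 1 of the 15 the genotypes did not overlap, the macrophage-like cluster 3 led by Cx3cr1 and C1qa, with 19.3% to 20.7% in 4 animals of the wild type and 15.8% to 19.1% in 4 of the knock-out. These cells come from the same animals, so the clusters are not independent.

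Neutrophil-like cells had 3.76% ± 0.93 in 5 animals of the wild type and 1.83% ± 0.30 in 2 of the knock-out. Wild-type values were 2.47%, 3.16%, 4.11%, 4.83% and 4.21%. Knock-out animals 1 and 5 had 2.04% and 1.62%, with no overlap. The remaining knock-out animals had too few of these cells to be used and did not lie below the wild type. They had 6.84% in animal 2 (1 cell), 4.57% in animal 3 (1 cell) and 8.85% in animal 4 (4 cells). The lack of overlap thus depends on the minimum number of cells per animal. The animals differ in the clusters that hold these cells. Cluster 28 held 70 of the 82 neutrophil-like cells of wild-type animal 2, 12 of 13 of animal 3, 12 of 12 of animal 4 and 41 of 44 of animal 5. In the knock-out it held 23 of animal 1 and 13 of animal 5, while clusters 19 and 25 held 20 and 27 of animal 1 and 23 and 14 of animal 5. Wild-type animal 1 had 86 in cluster 28, 126 in cluster 19 and 105 in cluster 25. Within cluster 28 the shares were 3.95% ± 0.76 (n = 5) and 2.35% ± 0.11 (n = 2), and the part of cluster make-up in the class values was not tested. With 2 knock-out animals no genotype test was made in this class.

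Whether the genotype effect differed between classes was tested for T-like with cDC2-like cells and for monocyte-like with cDC2-like cells. Other pairs, among them ILC2-like with T-like cells, were not tested. Between T-like and cDC2-like cells of 9 animals none of the 82 was called (0), where 0.0192% of 5202 genes were called. An unadjusted p under 0.05 was reached by 7 of the 82 (8.54%) and by 4.33% of all genes. The difference was above 0 for 75 of the 82 genes with a median of 0.18 (all genes -0.06). Between monocyte-like and cDC2-like cells of 10 animals 0 were called, where 0.0163% of 6143 genes were. Here 1 of the 82 (1.22%) and 6.84% of all genes reached an unadjusted p under 0.05.

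Ribosomal protein genes are spread over the genome, with 14 of the 82 on chromosome 7 and 7 on chromosome 9. Il20rb lies at chr9:100457719-100486473 (GRCm38.p6) and Rpl29 at chr9:106428889-106431568, 5.94 Mb away. The 7 family members on that chromosome lie 14.5 to 56.0 Mb from Il20rb. Their fold changes over all cells ran from -0.13 (Rpsa, 19.6 Mb away) to 0.11 (Rps27rt, 14.5 Mb away), within the range of the family. Rplp1 was at -0.11 ± 0.08, Rpl14 at -0.11 ± 0.09, Rps25 at -0.06 ± 0.06, Rpl4 at -0.06 ± 0.08 and Rps27l at 0.08 ± 0.08.

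Around the family, the lists of the translation apparatus gave 0 calls between genotypes over all cells. Of 38 translation factors 13 had fold changes above 0 and 25 below (1 with an unadjusted p under 0.05), and of 51 biogenesis genes 12 and 39 (2). Of 78 mitochondrial ribosome genes 56 lay above 0 and 22 below (3, median 0.06), of 13 mitochondrially encoded genes 3 and 10 (2), and of 10 small nucleolar RNA host genes 2 and 8 (0). In monocyte-like cells 29 of 31 measured biogenesis genes were below 0 with a median of -0.32 and 11 had an unadjusted p under 0.05, while 0 passed the threshold. In that fit 50.3% of all genes were below 0 and 12.3% had such a p.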

How the data were processed

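Raw UMI counts by Ensembl gene ID were deposited for all cells in a single matrix, and each cell's name holds its barcode, well, genotype and hashtag. A deposited hashtag table gives the genotype of each hashtag. Cell Ranger 6.0.1, R 4.0.5 and build mm10 are named in the submitters' processing notes, without their roles. The table held only cells of 1000 to 52182 UMIs, so it had been filtered. Whether counting used strand and how reads of near-identical copies were assigned are not stated in the labels, and overlapping or antisense genes cannot be told apart. Of the barcodes 2 occur in both wells.

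Symbols were found for 32158 of 32285 gene IDs in a reference name table, and coordinates and promoter sequences came from RefSeq (GRCm38.p6). The members of the family and all gene lists were chosen with earlier results of these data known. Cells were clustered without the 82 genes (scanpy 1.11.5, igraph 0.11.9, 2000 variable genes, 15 neighbours, Leiden resolution 2.5). Scrublet marked 4 doublets (0.0661%) in this already filtered table, and no cell was removed. How many doublets remain is not known. UMIs were summed per animal and class, for animals with 10 or more cells and classes with 3 or more such animals per genotype. Shares were described without a test. Tests across genes used edgeR 4.0.16 under R 4.3.3 (filterByExpr, TMM, robust quasi-likelihood, Benjamini-Hochberg over all genes tested, threshold 0.05), with DESeq2 1.42.0 as an alternative, and class contrasts had the animal as a term, since both classes came from the same animals. The code was tested on simulated counts. Named genes were the 5 with the smallest p over all cells, the 2 with the smallest p in each class, the 5 most and 5 least abundant, the 5 with the widest range between classes, and the paralogs. Rpl29 is given as a reference. Other choices are stated beside the result. The animal number only names an animal. After seeing the data, gamma-delta and regulatory names and markers were joined to those of T-like cells, and nonclassical ones to those of monocyte-like cells. Likewise, 2 clusters with markers of another class were left unnamed. Single values of some genes are not reported here.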

Additional observations from a re-analysis of the deposited data

Results flagged for a closer look

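Of 74 groups of 4 or 5 animals screened, 5 held an animal far from the others, and chance alone gives about 1 in 20. In ILC2-like cells wild-type animal 2 had a family share of 29.3%, against 23.6% to 25.1% in the other 4 wild-type animals. Wild-type animal 1 was low over all cells for 4 genes. It had 527 CPM of Rpl12 against 709 to 774 in the other wild-type animals, 830.3 CPM of Rps25 against 983 to 1044, 7445 CPM of Rps29 against 8343 to 8566 and 358 CPM of Rpl4 against 457 to 482. In this animal 35.3% of cells were neutrophil-like, the class with the lowest family share, and the part of this in its values was not tested.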

How the results depend on the processing

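All 84 alternatives of the share differences between genotypes kept their sign, among them leaving out each animal, each well alone, mean over cells and other denominators. Over all cells the difference ran from -2.13 to -1.02 percentage points when 1 animal was left out. In 112 of 113 alternative genotype fits 0 genes of the family were called. The exception was ILC2-like cells with no filter on low counts, with 3 genes lower, where the median of all genes moved to -0.35. Leaving out any 1 animal gave 0 calls in every genotype fit. Differences of the share between classes kept their sign in 32 of 35 alternatives. The other 3 were cDC1-like against ILC2-like cells (-0.417 by a gate on marker UMIs, -0.519 at a lower clustering resolution) and cycling-like against macrophage-like cells (-0.183 at the lower resolution).

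Class contrasts used the animal as a block. With no replicate block, 46 genes were called between T-like and cDC2-like cells (43 with it), 42 between monocyte-like and cDC2-like (52 with it), 62 between macrophage-like and cDC2-like (68 with it) and 81 between neutrophil-like and monocyte-like cells (81 with it). Relative to the family total, the counts were 32 for monocyte-like, 26 for macrophage-like and 32 for neutrophil-like cells. That scale removes the difference of the family total by its construction and moved the median of all genes to 0.16, 0.34 and 2.07. The neutrophil-like contrast was planned for 3 animals per genotype and was run on 5 wild-type and 2 knock-out animals after seeing the data. Leaving out single animals was not run for class contrasts. Depth limits the lymphoid classes, where knock-out animals gave few cells, and the rare genes Rps27rt, Rps19bp1 and Rpl7l1.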
